A study of Mus musculus with 66 samples.

Results

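The p53 pathway genes described here are Trp53, which encodes the transcription factor p53, its negative regulators Mdm2 and Mdm4, and 7 genes known as p53 targets, Cdkn1a, Ccng1, Zmat3, Bax, Aen, Trp53inp1 and Phlda3. They were taken by gene symbol, with earlier results of these data known. They are 10 of the 23420 symbols in the expression tables of 66 mouse spleen B cell libraries. Germinal centre (GC) B cells (33 libraries) and naive B cells (33 libraries) were purified with beads and cultured for 4 h or 2 h. All came from the strain that the labels call MEG, BALB/c mice with an IgM B1-8 BCR transgene, so every group shares a transgenic antigen receptor of the IgM class. The libraries fall in 2 sets that were normalized separately. The antigen receptor set holds 32 libraries in 16 groups of 2: cells given anti-IgM plus anti-CD40, anti-CD40, anti-IgM or no stimulus, in each cell type and at each time. The IL-21 set holds 34 libraries in 12 groups of 2 or 3: cells given IL-21 plus anti-CD40, IL-21 or anti-CD40, with no unstimulated cells. Anti-IgM crosslinks the antigen receptor, anti-CD40 stands in for the CD40 ligand of helper T cells, and IL-21 is a cytokine of follicular helper T cells. Whether replicates are different mice is not stated in the labels, and the p-values therefore rest on library to library variation that may be technical.

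p53 is held at a low level in resting cells by Mdm2, which marks it for degradation and is itself a p53 target, and by Mdm4, which binds its activation domain. When p53 is stabilised, it switches on genes of cell cycle arrest such as Cdkn1a and genes of cell death such as Bax. In germinal centres, where B cells divide fast and mutate their antibody genes, the repressor Bcl6 is known, from human cells, to hold down the genes for p53 and p21. The protein level and activity of p53 were not measured here, and in bulk libraries fewer expressing cells and less RNA per cell cannot be told apart.

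Values are the deposited log2 expression values, which lie close to log2 CPM (read counts scaled to a common library total), and a difference of 1 between log2 values is a 2-fold difference. Levels are compared for one gene across groups and not between genes, since the values are not scaled by transcript length. Of the 23420 symbols, 11264 had a log2 value above 1 in at least 4 of the 66 libraries and were tested. All 10 p53 pathway genes were among them. Trp53, Mdm2, Mdm4, Ccng1, Aen, Trp53inp1 and Bax were above 1 in all 66 libraries, Cdkn1a in 61, Zmat3 in 47 and Phlda3 in only 4. Differences come from limma, fitted once per library set, and each averages the differences at 4 h and at 2 h unless a time is given, with its standard error (SE). Calls are made at a Benjamini-Hochberg adjusted p under 0.05 over all 11264 genes.

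The promoter sequences of the genes on which the results turn are shown first, because p53 acts through a known DNA element. A RefSeq window of 300 bases (GRCm38.p6), from 250 bases before to 50 after an annotated start, was found for 8 of the 10 genes, that is all but Trp53inp1 and Zmat3. Both strands were searched for the 10-base p53 decamer and for the E-box CACGTG, which is bound by Myc and related factors, and no matches overlapped in the windows of these genes. Capitals mark the matches, with decamers as runs of 10 letters and E-boxes as runs of 6. The 4 windows below are those of the gene with a paired decamer and of 3 genes whose responses are described at length below.

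Cdkn1a, upstream start, chr17:29090729-29091028, + strand: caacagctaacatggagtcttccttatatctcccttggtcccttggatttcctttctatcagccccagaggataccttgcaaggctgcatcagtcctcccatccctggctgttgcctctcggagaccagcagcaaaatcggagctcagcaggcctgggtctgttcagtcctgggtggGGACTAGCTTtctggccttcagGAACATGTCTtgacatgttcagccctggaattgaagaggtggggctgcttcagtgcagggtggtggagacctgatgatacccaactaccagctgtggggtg
Trp53, chr11:69580109-69580408, + strand: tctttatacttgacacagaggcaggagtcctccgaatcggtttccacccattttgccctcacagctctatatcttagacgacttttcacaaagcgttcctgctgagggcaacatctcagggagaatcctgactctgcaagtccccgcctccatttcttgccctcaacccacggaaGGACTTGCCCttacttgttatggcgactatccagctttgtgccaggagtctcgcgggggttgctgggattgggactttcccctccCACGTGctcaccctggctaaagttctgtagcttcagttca
Aen, downstream start, chr7:78895808-78896107, + strand: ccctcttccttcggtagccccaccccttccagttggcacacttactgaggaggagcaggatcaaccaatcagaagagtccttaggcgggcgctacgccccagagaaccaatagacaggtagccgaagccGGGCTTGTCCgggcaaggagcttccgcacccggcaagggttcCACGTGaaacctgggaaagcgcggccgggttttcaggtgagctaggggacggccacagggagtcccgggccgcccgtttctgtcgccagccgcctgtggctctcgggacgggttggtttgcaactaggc
Ccng1, chr11:40755237-40755536, - strand: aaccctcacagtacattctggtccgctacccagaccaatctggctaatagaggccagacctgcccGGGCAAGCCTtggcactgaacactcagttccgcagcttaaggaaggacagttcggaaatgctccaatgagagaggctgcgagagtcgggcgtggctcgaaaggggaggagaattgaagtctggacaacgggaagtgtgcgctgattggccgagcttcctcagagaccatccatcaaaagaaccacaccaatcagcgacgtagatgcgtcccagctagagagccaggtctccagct

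The decamer was present in 6 of the 8 genes with a window (Trp53, Mdm2, Ccng1, Aen, Cdkn1a and Bax), against 8.36% of all 32851 mouse promoter windows. The upstream Cdkn1a window alone held a pair of decamers within 13 bases of each other, the spacing of a full p53 element, and such a pair was present in 0.0731% of all windows. The downstream Cdkn1a window held none. CACGTG was present in Trp53, Aen and Bax, against 7.15% of all windows. A gene was counted if any of its windows held the match, while the shares are per window. Mdm4, Aen and Cdkn1a had 2 windows each, so counts and shares are not strictly alike. These matches describe the sequence and no binding was measured.

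In the data, anti-CD40 raised Trp53 and Aen and lowered Trp53inp1 in both cell types. Anti-IgM raised Aen and Cdkn1a in both cell types, and in naive cells it lowered Trp53. Some of these calls were lost when single libraries were left out. They were Trp53inp1 (anti-CD40), Aen and Cdkn1a (anti-IgM) in GC cells and Trp53 (anti-IgM) in naive cells. Ccng1 fell in naive cells under anti-CD40, anti-IgM and the pair of them. Aen, a p53-induced nuclease linked to apoptosis, was higher in GC and naive cells under each of anti-CD40, anti-IgM and the pair of them. IL-21 added to anti-CD40 raised Cdkn1a in naive cells and Aen in GC cells. It raised Trp53inp1 in GC cells at 2 h, with no call at 4 h. Without stimulus, GC cells had less Cdkn1a, Aen and Trp53 and more Mdm2 than naive cells. Mdm2, a direct p53 target, was not called higher than in unstimulated cells under any stimulus.

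Before the results, one property of the antigen receptor set has to be stated. Its replicate numbers (1 and 2, or 4 and 5 under anti-CD40) mark a shift shared by all groups of a cell type: the deviations from the group means of libraries with the same number correlated at 0.54 to 0.73 in GC cells and at 0.59 to 0.73 in naive cells, in all 32 pairs of each. Between the cell types the same number went opposite ways, with correlations of -0.75 to -0.53 over 80 pairs. The median absolute difference over all genes between the libraries numbered 1 or 4 and those numbered 2 or 5 was 0.317 on the log2 scale in GC cells and 0.378 in naive cells, but 0.0822 when both cell types were pooled. The source of this shift was not tested. Comparisons within a cell type cross it evenly, and calls that appear only with the replicate number as a block are named as such. Differences between GC and naive cells are given by number as well. No such shift went with the numbers in the IL-21 set.

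GC libraries carried the GC signature: the summed level of 6 GC markers, in back-transformed units near CPM, was 398 to 2540 in GC and 36.5 to 115 in naive libraries of the antigen receptor set, and 517 to 2260 against 73.7 to 152 in the IL-21 set. The 5 naive markers in the files summed to 394 to 2040 in GC and 2630 to 7940 in naive libraries of the antigen receptor set, and to 340 to 3130 against 2200 to 6330 in the IL-21 set. Fcer2a, one of the 5, was not lower in GC libraries of the antigen receptor set, with median log2 values of 9.25 in GC and 9.15 in naive libraries. In the IL-21 set its ranges overlapped widely, at 6.40 to 11.5 in GC and 7.69 to 11.6 in naive libraries. Bcl6 itself, one of the 6 GC markers, had log2 values of 6.04 to 8.38 in GC and 3.73 to 6.54 in naive libraries of the antigen receptor set, but 4.79 to 7.19 in GC (median 6.20) and 5.56 to 6.90 in naive libraries (median 6.49) of the IL-21 set. It was thus not higher in GC libraries there. The 6 T cell markers summed to 0.685 to 14.2, the 3 NK cell markers to 0.298 to 14.4 and the 3 stromal markers to 0.0953 to 14.9 over all libraries. The 6 myeloid markers summed to 4.70 to 14.4 in GC and 52.5 to 273 in naive libraries of the antigen receptor set, without overlap, and to 39.2 to 108 against 59.0 to 170 in the IL-21 set. In the IL-21 set they did not share one direction. S100a8 (3.38 against 1.98), S100a9 (3.35 against 2.51) and Itgam (0.03 against -0.31) had higher log2 medians in GC libraries, and Lyz2, Csf1r and Emr1 had lower ones. The 3 plasma cell markers summed to 411 to 2820 in GC and 152 to 483 in naive libraries of the antigen receptor set, and to 373 to 2300 against 212 to 644 in the IL-21 set. Of the 3, only Igj had a higher log2 median in GC libraries, in both sets. Sdc1 (1.259 against 1.416) and Xbp1 (7.386 against 7.606) had lower GC medians in the antigen receptor set. They were also lower in the IL-21 set, at 1.519 against 2.185 for Sdc1 and 6.737 against 7.025 for Xbp1. Erythroid markers, 4 in the files, summed to 584 to 1620 in GC and 110 to 487 in naive libraries of the IL-21 set, but to 25.1 to 135 in GC and 166 to 662 in naive libraries of the antigen receptor set. The part of these markers in the GC against naive values below was not tested.

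Trp53, on chromosome 11 (69580359 to 69591873, + strand, GRCm38), rose under anti-CD40 in both cell types. In GC cells at 4 h, its log2 values were 8.60 and 8.90 under anti-CD40, against 7.50 and 7.55 without stimulus, and at 2 h they were 7.62 and 7.92 under anti-CD40, against 7.27 and 7.47 without stimulus. In naive cells at 4 h it had 9.21 and 8.96 under anti-CD40, against 8.29 and 7.91 without stimulus, and at 2 h 8.66 and 8.32 under anti-CD40, against 8.09 and 7.94 without stimulus. Every anti-CD40 library lay above both unstimulated libraries of its cell type and time. The difference was 0.81 ± 0.16 in GC cells (1.75-fold, adjusted p = 0.00164, limma) and 0.73 ± 0.16 in naive cells (1.66-fold, adjusted p = 0.00209).

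Anti-IgM separated the cell types for Trp53. In naive cells under anti-IgM, Trp53 was at 7.81 and 7.46 at 4 h and at 7.61 and 7.21 at 2 h, below all 4 unstimulated naive values given above for the same times. The difference was -0.54 ± 0.16 (adjusted p = 0.0167), and in GC cells it was 0.04 ± 0.16 (adjusted p = 0.992). The naive call was lost without anti-IgM replicate 2 at 2 h or at 4 h, or without unstimulated replicate 1 at 2 h or at 4 h (adjusted p 0.0815, 0.0759, 0.058 and 0.0823), and when only the groups compared were fitted (0.0731). Under anti-IgM plus anti-CD40, GC cells had 8.37 and 8.84 at 4 h and 7.57 and 8.12 at 2 h, a difference from unstimulated cells of 0.78 ± 0.16 (adjusted p = 0.00121). Naive cells given both had 8.03 and 7.73 at 4 h and 7.91 and 7.71 at 2 h, a difference of -0.21 ± 0.16 from unstimulated cells (adjusted p = 0.322, and 0.0286 with the replicate block). They were 0.94 ± 0.16 below naive cells given anti-CD40 alone (adjusted p = 0.000369), without overlap at either time. The effect of the pair of stimuli on Trp53 was larger in GC than in naive cells by 0.99 ± 0.23 (adjusted p = 0.00684). For anti-IgM alone, the same difference of effects was 0.58 ± 0.23 and was called only with the replicate block (adjusted p = 0.141 without it and 0.000846 with it).

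Trp53 in the IL-21 set was high at 4 h wherever anti-CD40 was present. GC cells at 4 h had 8.51, 8.46 and 8.53 under IL-21 plus anti-CD40, 7.16, 7.08 and 7.08 under IL-21, and 8.68, 8.38 and 8.56 under anti-CD40. At 2 h the GC values were 7.32, 7.29 and 7.52 under IL-21 plus anti-CD40, 7.04, 6.96 and 6.75 under IL-21, and 7.08 and 7.09 under anti-CD40. The 4 h values with anti-CD40 stood more than 1 log2 unit above all IL-21 values. At 2 h the groups lay closer together, with the combination (7.29 to 7.52) above all values of either single stimulus. IL-21 plus anti-CD40 exceeded IL-21 by 0.93 ± 0.06 in GC cells (adjusted p = 9.42e-14) and by 0.43 ± 0.07 in naive cells (adjusted p = 1.94e-06). That effect was larger at 4 h than at 2 h by 0.94 ± 0.12 in GC cells (adjusted p = 1.36e-06) and by 0.64 ± 0.13 in naive cells (adjusted p = 0.000627). IL-21 added to anti-CD40 gave 0.12 ± 0.07 in GC cells (adjusted p = 0.146) and -0.01 ± 0.06 in naive cells (adjusted p = 0.94).

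Mdm2, the ubiquitin ligase of p53 (chromosome 10, 117688875 to 117710758, - strand), moved little and mostly downwards. In GC cells under anti-IgM plus anti-CD40 it had 6.09 and 6.42 at 4 h and 6.65 and 6.89 at 2 h, against 6.75 and 7.07 at 4 h and 6.87 and 7.25 at 2 h without stimulus. The groups were apart at 4 h and overlapped at 2 h. The difference was -0.47 ± 0.13 (0.72-fold, adjusted p = 0.0108). It was lost without the stimulated replicate 1 at 2 h or at 4 h, or the unstimulated replicate 2 at 2 h or at 4 h (adjusted p 0.0515, 0.0635, 0.072 and 0.0656), and when only the groups compared were fitted (0.0769). In GC cells, Mdm2 differed from unstimulated cells by -0.38 ± 0.13 under anti-CD40 and by -0.32 ± 0.13 under anti-IgM, and both were called only with the replicate block (adjusted p 0.00191 and 0.00973, against 0.0645 and 0.174 without it). In naive cells the same was so under anti-IgM, with -0.31 ± 0.13 (0.00472 with the block and 0.0823 without it), and anti-CD40 gave -0.17 ± 0.13 (adjusted p = 0.38). Naive cells given both stimuli had 6.32 and 6.24 at 4 h and 6.66 and 6.54 at 2 h, against 6.76 and 6.55 at 4 h and 6.36 and 6.24 at 2 h without stimulus. They lay below the unstimulated libraries at 4 h and above them at 2 h. The difference was -0.37 ± 0.19 at 4 h (adjusted p = 0.128, and 0.0128 with the block) and 0.30 ± 0.19 at 2 h (0.302, and 0.0529 with the block), with a mean of -0.04 ± 0.13 (adjusted p = 0.865). GC cells of the IL-21 set at 2 h had 6.90, 6.93 and 6.98 under IL-21 plus anti-CD40, 6.71, 6.88 and 6.82 under IL-21, and 6.42 and 6.55 under anti-CD40. Both groups with IL-21 lay above anti-CD40 alone at this time, and at 4 h the 3 groups lay between 6.21 and 6.55. Averaged over the times, IL-21 plus anti-CD40 exceeded anti-CD40 by 0.19 ± 0.06 (adjusted p = 0.0102), a call that was lost without anti-CD40 replicate 1 at 2 h (0.0768).

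Mdm4, the other negative regulator (chromosome 1, 132959484 to 133030561, - strand), was called in no comparison with unstimulated cells. Its GC difference under anti-IgM plus anti-CD40 was -0.31 ± 0.39 and passed only with the replicate block (adjusted p = 0.0449, against 0.641 without it). Mdm4 is one of the genes that followed the replicate numbers. Unstimulated GC replicates 1 and 2 had 5.88 and 5.34 at 4 h and 5.63 and 4.68 at 2 h, while unstimulated naive replicates 1 and 2 had 3.66 and 5.15 at 4 h and 4.47 and 5.15 at 2 h. Replicate 1 was the higher one in GC cells and the lower one in naive cells. The gene Gm29257 overlaps Mdm4 on the other strand, and the library kit did not mark strand.

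**Figure D1:**
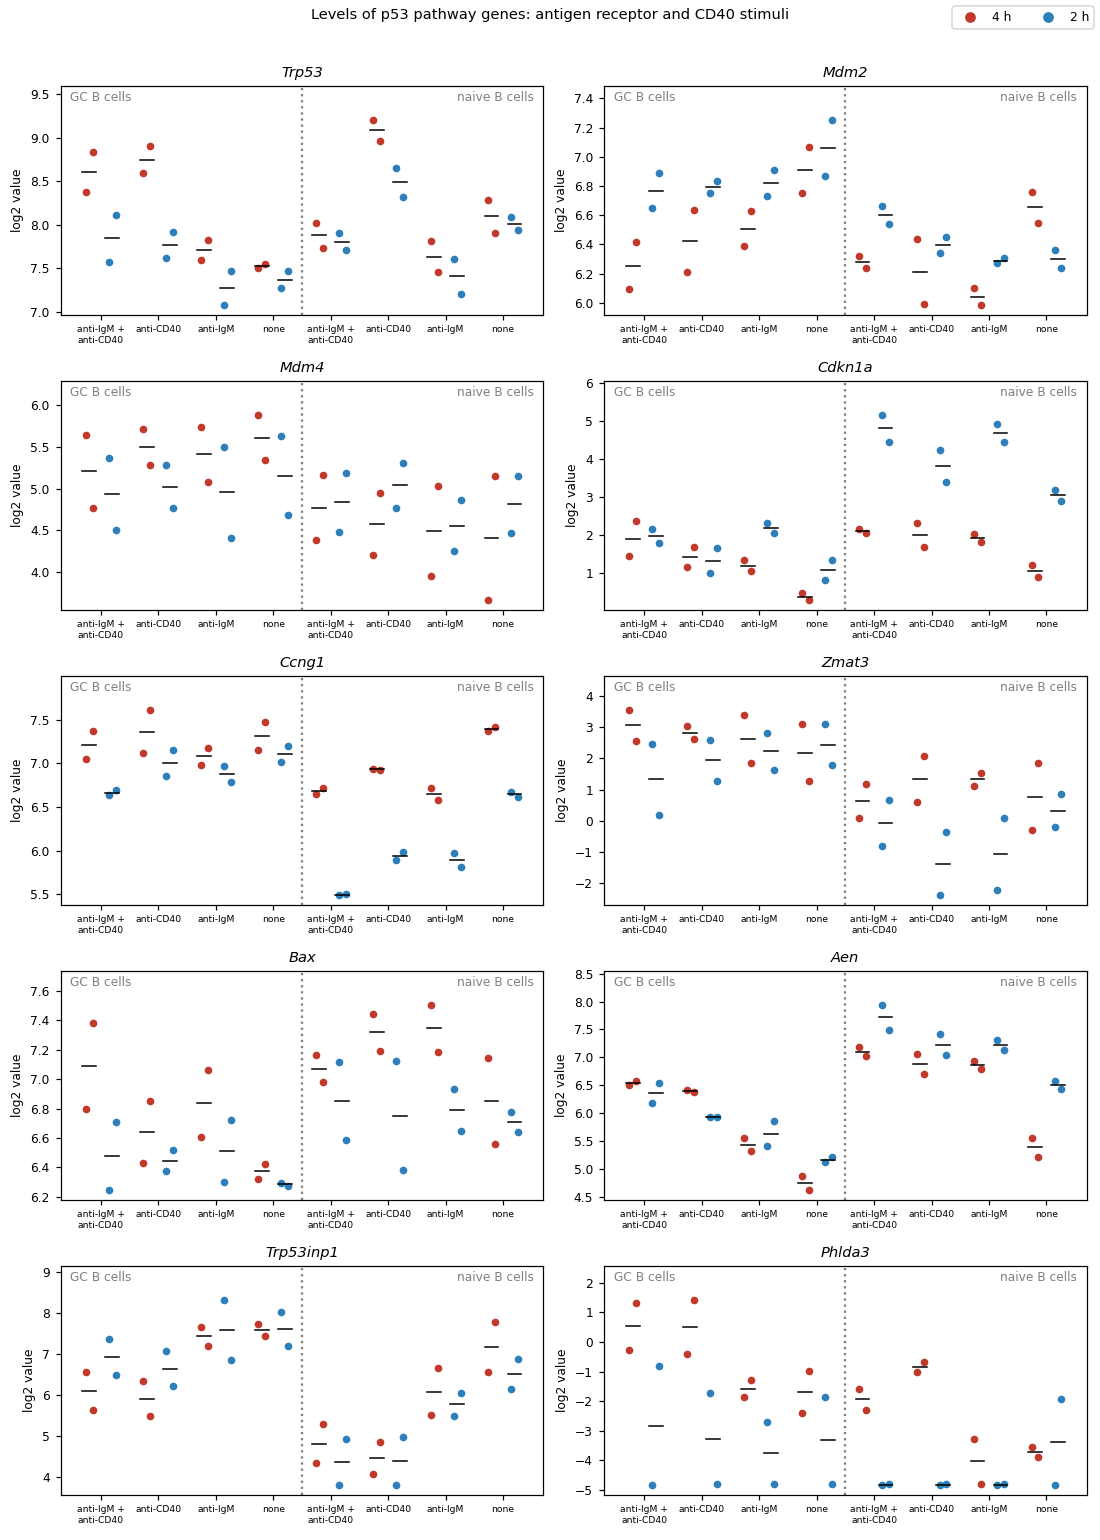
Deposited log2 values of the 10 p53 pathway genes in the antigen receptor set, one panel per gene, with GC cells left of naive cells and the stimuli on the horizontal axis. Points are libraries (4 h red, 2 h blue) and bars are group means. Aen lies lowest in unstimulated cells of both types, at 4.62 to 5.21 in GC and 5.21 to 6.58 in naive cells, and Trp53inp1 falls to 3.79 to 5.28 in naive cells wherever anti-CD40 was given.

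Cdkn1a encodes the cyclin-dependent kinase inhibitor p21 and is the best known arrest gene downstream of p53 (chromosome 17, 29090976 to 29100727, + strand). It was at its highest in naive cells at 2 h. In the antigen receptor set, naive cells at 4 h had 2.16 and 2.06 under anti-IgM plus anti-CD40, 2.31 and 1.68 under anti-CD40 and 2.02 and 1.81 under anti-IgM, against 1.20 and 0.88 without stimulus. At 2 h they had 5.16 and 4.46, 4.24 and 3.40, and 4.93 and 4.46 in the same order of stimuli, against 3.19 and 2.90 without stimulus. Each stimulated pair lay above the unstimulated pair of its time. The differences from unstimulated naive cells were 1.41 ± 0.26 with both stimuli (2.66-fold, adjusted p = 0.000214), 0.86 ± 0.26 with anti-CD40 (adjusted p = 0.0181) and 1.26 ± 0.26 with anti-IgM (2.39-fold, adjusted p = 0.00103). The anti-CD40 call was lost without anti-CD40 replicate 4 at 2 h or at 4 h, or unstimulated replicate 2 at 2 h or at 4 h (adjusted p 0.0993, 0.0919, 0.0635 and 0.0674), and when only the groups compared were fitted (0.0824).

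In GC cells Cdkn1a was low and rose with anti-IgM. Its log2 values were 1.33 and 1.05 at 4 h and 2.30 and 2.04 at 2 h under anti-IgM, against 0.47 and 0.27 at 4 h and 0.80 and 1.34 at 2 h without stimulus. The groups did not overlap, and the difference was 0.96 ± 0.26 (1.95-fold, adjusted p = 0.0235). This call was lost without anti-IgM replicate 1 at 2 h or at 4 h, unstimulated replicate 1 at 2 h or unstimulated replicate 2 at 4 h (adjusted p 0.0821, 0.0963, 0.112 and 0.0908), when only the groups compared were fitted (0.0686), and with a pseudocount of 1 (0.0501). With both stimuli the GC difference was 1.22 ± 0.26 (2.32-fold, adjusted p = 0.00153), and with anti-CD40 alone it was 0.65 ± 0.26, called only with the replicate block (adjusted p = 0.018, against 0.114 without it). The effects on Cdkn1a differed between GC and naive cells by -0.20 ± 0.37 to -0.30 ± 0.37 over the 3 stimuli, none of them called (adjusted p 0.772 to 0.914).

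Adding IL-21 to anti-CD40 raised Cdkn1a in naive cells of the IL-21 set. They had 4.45, 4.53 and 4.24 at 4 h and 6.72, 6.60 and 6.41 at 2 h with both, against 3.54, 3.63 and 3.43 at 4 h and 5.70, 5.86 and 5.68 at 2 h with anti-CD40. The groups were separate at both times, and the difference was 0.85 ± 0.11 (1.80-fold, adjusted p = 4.28e-07). In GC cells the same addition gave 0.18 ± 0.12 (adjusted p = 0.247), and the effect in GC cells minus that in naive cells was -0.67 ± 0.16 (adjusted p = 0.00828). IL-21 alone exceeded anti-CD40 alone by 0.47 ± 0.12 in naive cells (adjusted p = 0.00143). IL-21 plus anti-CD40 exceeded IL-21 there by 0.38 ± 0.12 (adjusted p = 0.00708), a call that was lost without IL-21 replicate 2 at 2 h (0.0687). GC values ranged from 1.91 to 3.14 over the whole set and those of naive cells from 3.43 to 6.72, with no overlap. An antisense gene, AC167363.2, overlaps Cdkn1a, and its reads cannot be told apart from those of Cdkn1a in unstranded libraries.

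Ccng1 encodes cyclin G1, a p53 target known to act with Mdm2 (chromosome 11, 40748552 to 40755311, - strand). It fell with every stimulus in naive cells. At 4 h naive cells had 6.65 and 6.71 under anti-IgM plus anti-CD40, 6.94 and 6.92 under anti-CD40 and 6.72 and 6.58 under anti-IgM, against 7.37 and 7.41 without stimulus. At 2 h they had 5.49 and 5.50, 5.90 and 5.99, and 5.97 and 5.81 in the same order, against 6.67 and 6.62 without stimulus. No stimulated library reached the unstimulated ones of its time. The differences were -0.93 ± 0.12 (0.52-fold, adjusted p = 2.71e-06), -0.58 ± 0.12 (adjusted p = 0.000817) and -0.75 ± 0.12 (adjusted p = 6.18e-05). In GC cells they were -0.27 ± 0.12 with both stimuli (adjusted p = 0.0987, and 0.0113 with the replicate block), -0.03 ± 0.12 with anti-CD40 (0.943) and -0.23 ± 0.12 with anti-IgM (0.333). The effect of both stimuli differed between GC and naive cells by 0.66 ± 0.17 (adjusted p = 0.0115). For anti-CD40 and anti-IgM alone, this difference was 0.56 ± 0.17 and 0.52 ± 0.17 and was called only with the block (adjusted p 0.00255 and 0.00248, against 0.0687 and 0.0562 without it).

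Ccng1 in the IL-21 set was lower under IL-21 plus anti-CD40 than under IL-21, with differences of -0.36 ± 0.06 in GC cells (adjusted p = 1.35e-05) and -0.51 ± 0.07 in naive cells (adjusted p = 1.21e-07). Naive cells at 2 h had 5.69, 5.89 and 5.78 with both, against 6.33 and 6.33 with IL-21. The smaller GC differences from anti-CD40 were -0.19 ± 0.07 with IL-21 plus anti-CD40 (adjusted p = 0.0261) and 0.17 ± 0.07 with IL-21 (0.041). The first was lost without replicate 1 of anti-CD40 at 2 h or at 4 h or of IL-21 plus anti-CD40 at 2 h or at 4 h (adjusted p 0.189, 0.0593, 0.0575 and 0.0788). The second was lost without any of 6 libraries, anti-CD40 replicate 2 at 2 h and replicates 2 and 3 at 4 h and IL-21 replicates 1 and 3 at 2 h and 3 at 4 h (adjusted p 0.251, 0.102, 0.0506, 0.0562, 0.08 and 0.168). Both were also lost when only the groups compared were fitted (0.0567 and 0.0944).

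Zmat3 encodes an RNA-binding zinc finger protein induced by p53 (chromosome 3, 32334792 to 32366014, - strand). It was called under none of the stimuli, with an SE of 0.72 for each difference from unstimulated cells, against 0.19 to 0.20 for the differences in the IL-21 set. Its log2 values in the antigen receptor set ran from -2.39 to 3.55. In the IL-21 set, where all cells were stimulated, Zmat3 differed between the times. Naive cells under anti-CD40 had 2.70, 2.20 and 2.04 at 4 h, against 0.50, 0.65 and 0.52 at 2 h, and GC cells under anti-CD40 had 2.41, 2.80 and 2.56 at 4 h, against 1.90 and 1.66 at 2 h. Averaged over the 3 stimuli, 4 h exceeded 2 h by 1.55 ± 0.16 in naive cells (2.92-fold, adjusted p = 9.41e-10) and by 0.70 ± 0.16 in GC cells (1.63-fold, adjusted p = 0.000415). In unstimulated cells, 4 h against 2 h gave 0.45 ± 1.02 in naive cells (adjusted p = 0.84) and -0.26 ± 1.02 in GC cells (adjusted p = 1).

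Bax encodes the protein that opens the outer mitochondrial membrane in apoptosis (chromosome 7, 45461697 to 45466898, - strand, overlapped on the same strand by Gm45808). In naive cells of the IL-21 set it rose with time under every condition. It had 7.33, 7.44 and 7.22 at 4 h and 6.18, 6.11 and 6.30 at 2 h under IL-21 plus anti-CD40, 7.02, 7.0 and 6.73 at 4 h and 6.04 and 6.0 at 2 h under IL-21, and 7.03, 7.15 and 6.99 at 4 h and 5.88, 6.01 and 6.04 at 2 h under anti-CD40. Every 4 h library lay above every 2 h library. The mean difference of 4 h from 2 h was 1.03 ± 0.05 in naive cells (2.05-fold, adjusted p = 3.31e-17) and 0.45 ± 0.05 in GC cells (1.37-fold, adjusted p = 4.63e-09). The combination gave more Bax than either single stimulus in naive cells, by 0.25 ± 0.06 over anti-CD40 (adjusted p = 0.00239) and by 0.30 ± 0.06 over IL-21 (adjusted p = 0.000222). In GC cells it exceeded IL-21 by 0.34 ± 0.06 (adjusted p = 1.65e-05) and anti-CD40 by 0.09 ± 0.06 (adjusted p = 0.32). In the antigen receptor set, Bax differed from unstimulated cells by 0.18 ± 0.20 to 0.45 ± 0.20 in the 6 comparisons. The GC values for both stimuli (0.45) and anti-IgM (0.34) and the naive value for anti-IgM (0.29) were called only with the replicate block (adjusted p 0.00155, 0.0238 and 0.0307, against 0.105, 0.418 and 0.311 without it).

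Aen (chromosome 7, 78895854 to 78911209, + strand) rose in every comparison with unstimulated cells. In GC cells at 4 h it had 6.50 and 6.58 under anti-IgM plus anti-CD40, 6.42 and 6.38 under anti-CD40 and 5.55 and 5.33 under anti-IgM, against 4.87 and 4.62 without stimulus. At 2 h it had 6.19 and 6.54, 5.93 and 5.94, and 5.41 and 5.86 in the same order, against 5.12 and 5.21 without stimulus. Naive cells at 4 h had 7.18 and 7.02, 7.05 and 6.71, and 6.94 and 6.78, against 5.56 and 5.21 without stimulus, and at 2 h they had 7.94 and 7.49, 7.42 and 7.04, and 7.31 and 7.14, against 6.58 and 6.43. All 24 stimulated libraries lay above the unstimulated libraries of their cell type and time. With both stimuli the difference was 1.50 ± 0.14 in GC cells (2.83-fold, adjusted p = 1.19e-07) and 1.46 ± 0.14 in naive cells (2.76-fold, adjusted p = 8.2e-08). With anti-CD40 it was 1.21 ± 0.14 (adjusted p = 3.95e-06) and 1.11 ± 0.14 (adjusted p = 5.84e-06), again for GC and naive cells. With anti-IgM it was 0.58 ± 0.14 in GC cells (adjusted p = 0.0105) and 1.10 ± 0.14 in naive cells (adjusted p = 6.17e-06). The GC call for anti-IgM was lost without anti-IgM replicate 2 at 2 h, anti-IgM replicate 1 at 4 h or unstimulated replicate 2 at 4 h (adjusted p 0.0798, 0.057 and 0.0639), and when only the groups compared were fitted (0.0922). The difference of the anti-IgM effect between GC and naive cells was -0.52 ± 0.20 and passed only with the replicate block (adjusted p = 0.0102, against 0.121 without it).

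GC cells of the IL-21 set had the most Aen with both stimuli. At 4 h they had 7.33, 6.97 and 6.98 under IL-21 plus anti-CD40, 5.63, 5.66 and 5.39 under IL-21, and 6.87, 6.50 and 6.42 under anti-CD40. The IL-21 group lay below the others without overlap, and the combination lay above all anti-CD40 values. Over both times the combination exceeded anti-CD40 by 0.55 ± 0.10 (adjusted p = 7.4e-05) and IL-21 by 1.19 ± 0.09 (adjusted p = 6.39e-12), and IL-21 minus anti-CD40 was -0.64 ± 0.10 (adjusted p = 4.04e-06). In naive cells the combination exceeded IL-21 by 0.61 ± 0.10 (adjusted p = 6.61e-06).

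Trp53inp1, a p53-induced protein with roles in cell death and autophagy (chromosome 4, 11156431 to 11174379, + strand), had the largest fall of the 10 genes under anti-CD40 against no stimulus, in both cell types. In naive cells it had 4.08 and 4.84 at 4 h and 3.79 and 4.97 at 2 h under anti-CD40, against 6.56 and 7.79 at 4 h and 6.13 and 6.88 at 2 h without stimulus. No library of one group reached the other, although replicates of one group lay up to more than 1 log2 unit apart. The difference was -2.42 ± 0.44 with anti-CD40 (0.187-fold, adjusted p = 0.000306) and -2.26 ± 0.44 with anti-IgM plus anti-CD40 (adjusted p = 0.000328). With anti-IgM alone it was -0.91 ± 0.44 and was called only with the replicate block (adjusted p = 1.88e-05, against 0.129 without it).

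In GC cells Trp53inp1 had 6.33 and 5.49 at 4 h and 7.07 and 6.22 at 2 h under anti-CD40, against 7.73 and 7.45 at 4 h and 8.02 and 7.21 at 2 h without stimulus. The groups did not overlap within a time, and the difference was -1.33 ± 0.44 (0.399-fold, adjusted p = 0.0496). This call was lost without anti-CD40 replicate 5 at 2 h or at 4 h (adjusted p 0.194 and 0.186) and without either unstimulated replicate at 2 h (0.173 and 0.0564) or at 4 h (0.119 and 0.0994), with no filter on low values (0.132) and with plain moderation (0.0571). With both stimuli the GC difference was -1.09 ± 0.44 and was called only with the block (adjusted p = 2.31e-06, against 0.0772 without it), and with anti-IgM it was -0.09 ± 0.44 (0.997). The effect in GC cells minus that in naive cells was 1.09 ± 0.62 under anti-CD40 and 1.17 ± 0.62 with both stimuli, both called only with the block (adjusted p 0.000659 and 0.000141, against 0.454 and 0.274 without it).

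The IL-21 set gave the same gene its tightest values. At 4 h GC cells had 4.50, 4.43 and 4.69 under IL-21 plus anti-CD40, 6.80, 6.67 and 6.98 under IL-21, and 4.28, 4.39 and 4.82 under anti-CD40. At 2 h they had 6.44, 6.57 and 6.66 with both, 7.49, 7.83 and 7.57 with IL-21, and 5.49 and 5.28 with anti-CD40. At 4 h the combination lay with anti-CD40, and at 2 h it lay between the single stimuli. IL-21 added to anti-CD40 gave 0.04 ± 0.13 at 4 h (adjusted p = 0.808) and 1.17 ± 0.15 at 2 h (adjusted p = 6.45e-07). In naive cells the addition gave 0.05 ± 0.09 over both times (adjusted p = 0.761), and the effect was larger in GC cells by 0.56 ± 0.14 (adjusted p = 0.00885). IL-21 alone exceeded anti-CD40 alone by 2.28 ± 0.10 in GC cells (4.86-fold, adjusted p = 1.55e-18) and by 2.13 ± 0.10 in naive cells (4.39-fold, adjusted p = 1.04e-17).

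Phlda3, an inhibitor of Akt signalling induced by p53 (chromosome 1, 135766119 to 135769136, + strand), was near or below detection in most libraries. In 12 of the 32 libraries of the antigen receptor set it had the shared low value of its replicate number, -4.86 in 5 libraries and -4.80 in 7, a value that 20 to 50 genes shared in each of these libraries. Phlda3 is there listed at the low value, which gives no level. It was called in no comparison with unstimulated cells, with an SE of 0.94. The 4 libraries in which it was above 1 were all of GC cells at 4 h with anti-CD40, 2 of them in each set, so it entered the tests only through the cells where it was highest. Its differences are therefore given as values, with no p. In the IL-21 set, GC cells at 4 h had 0.94, -0.32 and 0.89 under IL-21 plus anti-CD40, -0.50, -1.89 and -2.15 under IL-21, and 1.26, 1.16 and 0.91 under anti-CD40. At 2 h they had -2.27, -3.16 and -1.46 with both, -0.43, -0.77 and -1.15 with IL-21, and -2.26 and -1.38 with anti-CD40. The IL-21 group was thus the lowest at 4 h and the highest at 2 h, without overlap with the combination at either time. The addition of anti-CD40 to IL-21 gave more at 4 h than at 2 h by 3.53 ± 0.89 in GC cells and by 0.60 ± 0.94 in naive cells. With a pseudocount of 1 the GC value was 1.21.

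**Figure D2:**
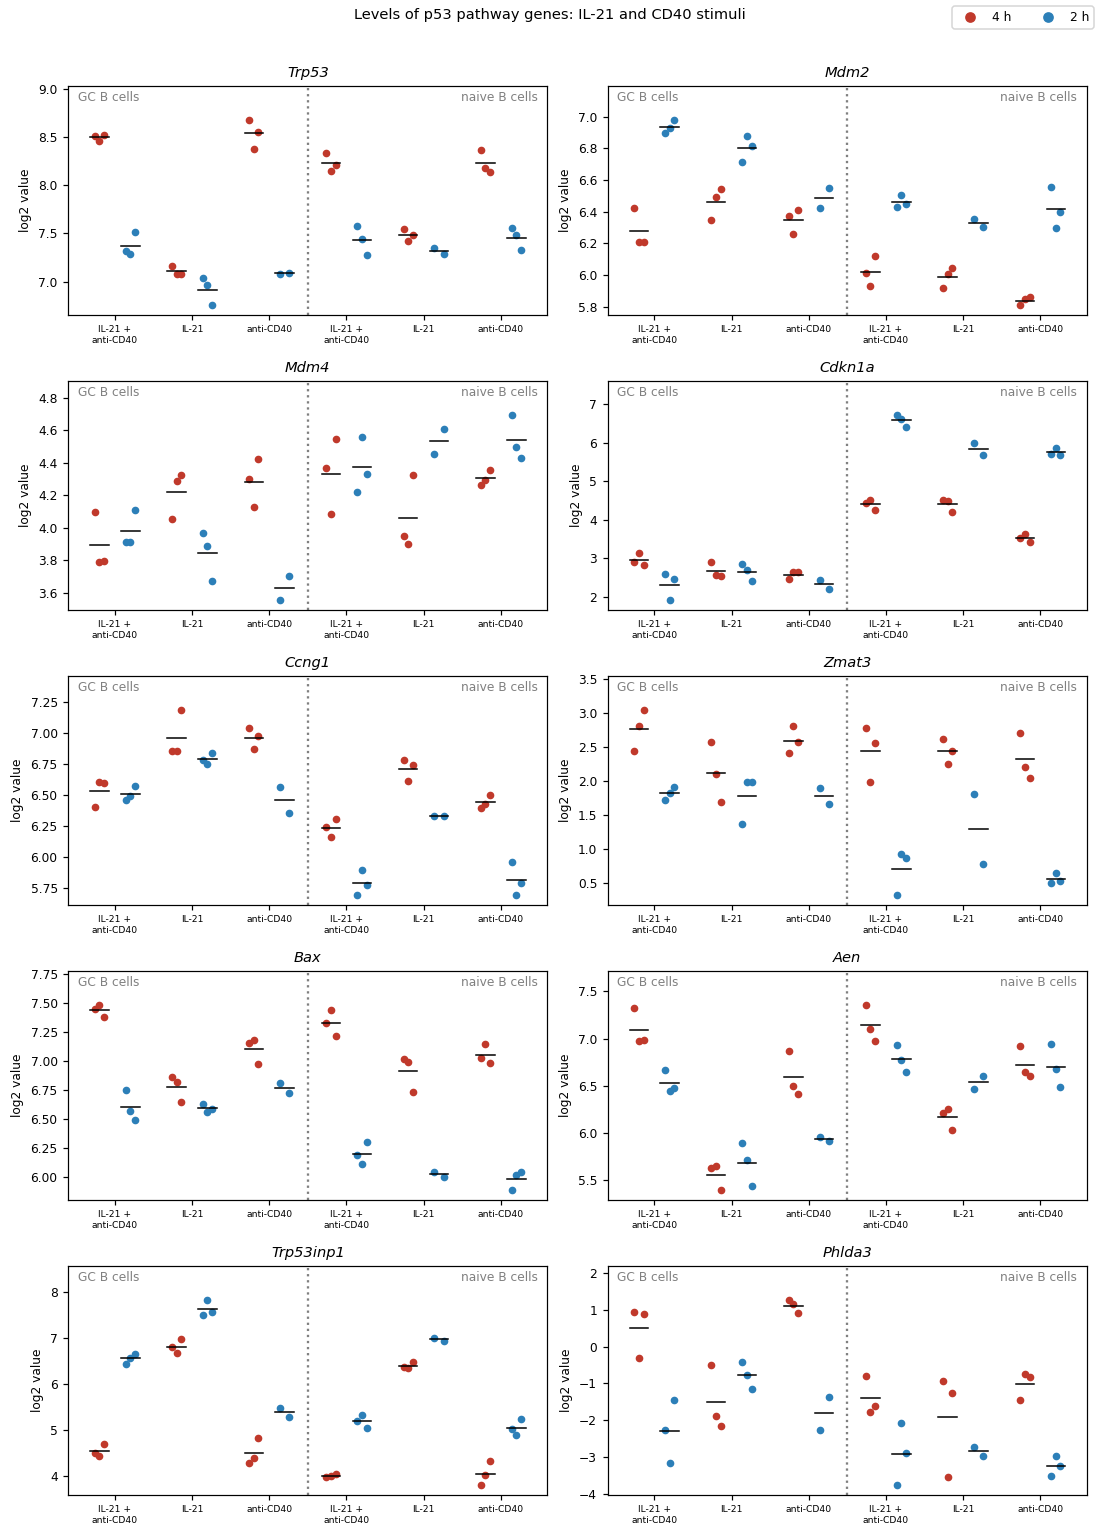
Deposited log2 values of the 10 p53 pathway genes in the IL-21 set, with GC cells left of naive cells, stimuli on the horizontal axis, points for libraries (4 h red, 2 h blue) and bars for group means. Cdkn1a is below 3.2 in all GC libraries and above 3.4 in all naive libraries, and Trp53inp1 is highest wherever IL-21 was given without anti-CD40.

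Against unstimulated cells, the number of p53 pathway genes called can be set beside the share of all tested genes called. The 3 comparisons of a cell type share their unstimulated libraries. In GC cells, anti-CD40 changed 3 of 10 (Trp53, Aen and Trp53inp1), against 13.9% of all genes, and anti-IgM changed 2 of 10 (Aen and Cdkn1a), against 9.05%. With both stimuli, 4 of 10 changed in GC cells (Trp53, Mdm2, Aen and Cdkn1a), against 26.3%. With the replicate block these counts were 5, 4 and 8 of 10, against 34.7%, 22.8% and 47.6% of all genes. In naive cells, anti-CD40 changed 5 of 10 (Trp53, Aen and Cdkn1a up, Ccng1 and Trp53inp1 down), against 28.7%, and 5 with the block, against 52.2%. Anti-IgM changed 4 of 10 in naive cells (Aen and Cdkn1a up, Trp53 and Ccng1 down), against 30.4%, and 7 with the block, against 53.4%. Both stimuli together changed 4 of 10 in naive cells (Aen and Cdkn1a up, Ccng1 and Trp53inp1 down), against 42.3%, and 5 with the block, against 62.9%. Without the block, the share among the 10 genes was above that of all genes in 5 of the 6 comparisons, and below it in naive cells given both stimuli. With the block it was above in 4, and below in naive cells given anti-CD40 or both stimuli. A single gene moves the share by 10 percentage points.

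Adding anti-IgM to anti-CD40 called 0 of 10 genes in GC cells by limma, against 9.31% of all genes. At an unadjusted p under 0.05, 2 were called, against 19.3% of all genes, and with the replicate block 2 (Ccng1 by -0.25 and Aen by 0.29), against 25.8%. In naive cells it called 1 of 10, Trp53, against 14.4%, and 4 with the block, against 33.5%. Tested for a difference between GC and naive cells, the anti-CD40 effect gave 0 of 10 by limma, against 4.11% of all genes, with 1 at an unadjusted p under 0.05, against 14.9%, and 2 with the block, against 18.5%. The anti-IgM effect gave 0 of 10, against 8.85%, with 3 at an unadjusted p under 0.05, against 21%, and 4 with the block, against 29.2%. The effect of both gave 2 of 10 (Trp53 and Ccng1), against 11.9%, and 5 with the block, against 32.2%.

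**Figure D3:**
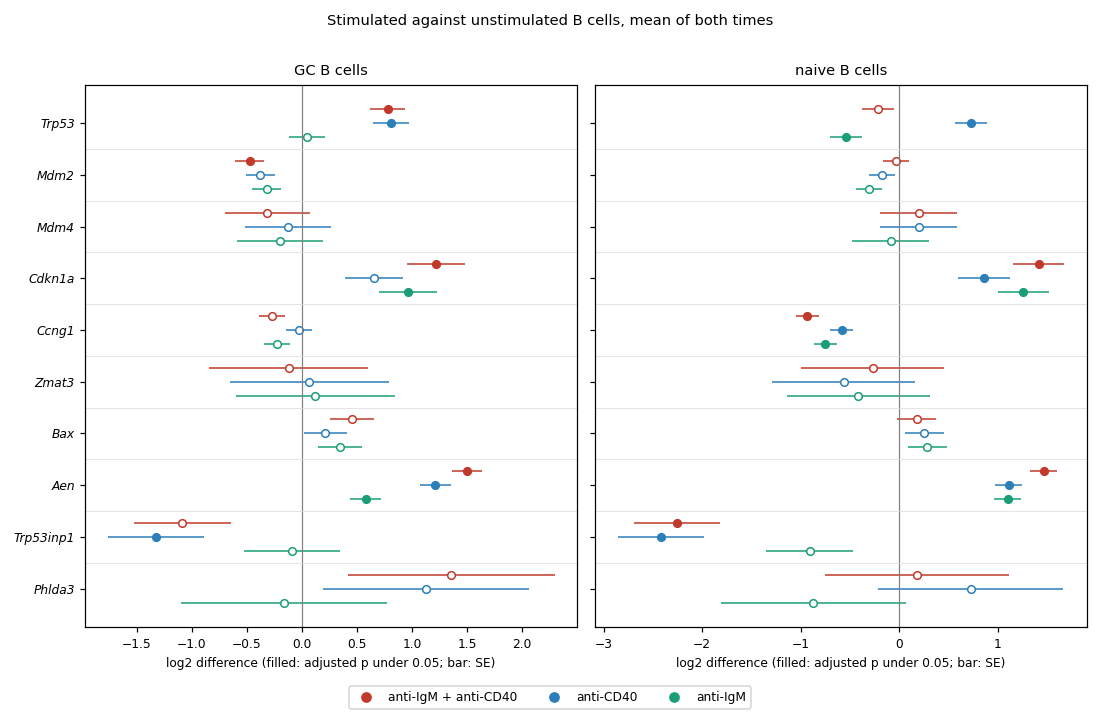
Log2 differences of each stimulus from unstimulated cells for the 10 genes, averaged over 2 h and 4 h, with GC cells left and naive cells right. Bars are SE and filled points have an adjusted p under 0.05. Aen is filled and positive in all 6 comparisons, at 0.58 to 1.50, while Zmat3 and Phlda3 have no filled point.

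The 3 comparisons of the IL-21 set share libraries as well. IL-21 plus anti-CD40 against anti-CD40 changed 4 of 10 genes in GC cells (Mdm2, Aen and Trp53inp1 up, Ccng1 down), against 33.2% of all genes, and 2 in naive cells (Cdkn1a and Bax up), against 24.3%. Taken at one time, the GC comparison called 5 of 10 at 4 h (Aen, Cdkn1a and Bax at 0.50, 0.37 and 0.34, Mdm4 and Ccng1 at -0.39 and -0.43), against 48.3%, and 3 of 10 at 2 h (Mdm2, Aen and Trp53inp1, at 0.45, 0.59 and 1.17), against 8.83%. IL-21 against anti-CD40 changed 6 of 10 in GC cells (Mdm2, Ccng1 and Trp53inp1 up, Trp53, Aen and Bax down), against 42.9%, and 5 in naive cells (Ccng1, Trp53inp1 and Cdkn1a up, Trp53 and Aen down), against 42.9%. IL-21 plus anti-CD40 against IL-21 changed 5 of 10 in GC cells (Trp53, Aen and Bax up, Ccng1 and Trp53inp1 down), against 56.6%, and 6 in naive cells (Trp53, Aen, Cdkn1a and Bax up, Ccng1 and Trp53inp1 down), against 55.1%. The effect of IL-21 added to anti-CD40 differed between GC and naive cells for 2 of 10 genes, Trp53inp1 and Cdkn1a, against 5.77%.

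The effect of anti-CD40 added to IL-21 differed between 4 h and 2 h for 7 of 10 genes in GC cells, against 32.1% of all genes. Phlda3 is one of the 7. It passed the filter only through GC libraries at 4 h with anti-CD40, so its call is no support. The effect was larger at 4 h for Trp53, Aen (0.69 ± 0.19), Cdkn1a (0.62 ± 0.22) and Bax (0.66 ± 0.12), and lower for Mdm2 (-0.31 ± 0.11) and Trp53inp1 (-1.20 ± 0.19). The Cdkn1a and Mdm2 calls were each lost without any of 6 libraries. For Cdkn1a these were IL-21 replicates 1 and 2 at 2 h and 2 and 3 at 4 h, and the combination's replicate 2 at 2 h and at 4 h (adjusted p 0.0588 to 0.139). For Mdm2 they were IL-21 replicate 1 at 2 h and 2 and 3 at 4 h, and the combination's replicate 3 at 2 h and 2 and 3 at 4 h (adjusted p 0.0529 to 0.0805). In naive cells 4 of 10 differed, against 27% of all genes: Trp53 and Aen (0.73 ± 0.20) were higher and Trp53inp1 (-0.61 ± 0.20) and Cdkn1a (-0.74 ± 0.23) lower. The last 2 were lost without IL-21 replicate 2 at 2 h (adjusted p 0.0768 and 0.128), and Trp53inp1 also without the combination's replicate 2 at 2 h (0.0565).

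**Figure D4:**
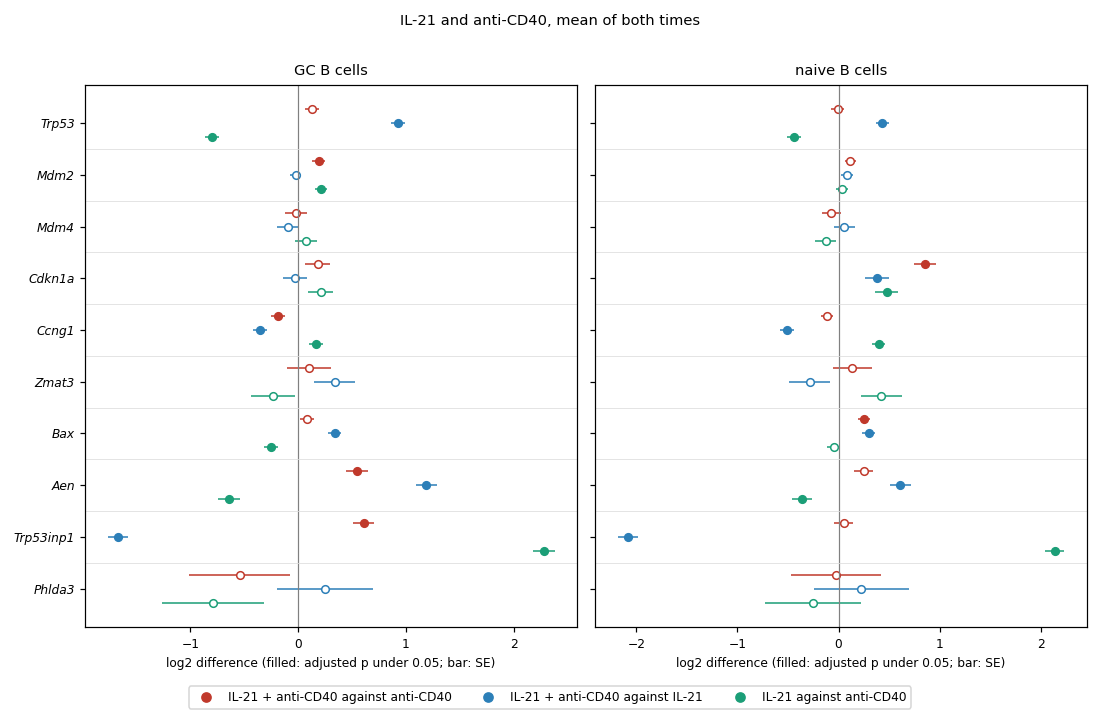
Log2 differences within the IL-21 set for the 10 genes, averaged over 2 h and 4 h, with GC cells left and naive cells right. Bars are SE and filled points have an adjusted p under 0.05. Trp53inp1 has the widest spread, from -1.67 to 2.28 in GC cells and from -2.08 to 2.13 in naive cells.

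Nearly all of these genes differed between 4 h and 2 h in the IL-21 set on average over its stimuli. Time in culture and time under the stimulus cannot be told apart there. Averaged over the stimuli, 10 of 10 genes differed between 4 h and 2 h in GC cells, against 64.1% of all genes, and 9 of 10 in naive cells (all but Aen), against 69.2%. Phlda3, which passed the filter through GC libraries at 4 h, is in both counts. By stimulus, the GC counts were 3 of 10 under IL-21 (33.8% of all genes), 8 under anti-CD40 (48.1%) and 8 under the combination (59.8%). The naive counts were 8 (42.8%), 8 (57%) and 9 (57.5%) in the same order, with Phlda3 among the 10 genes tested throughout. Trp53 was higher at 4 h by 0.92 ± 0.05 in GC cells and 0.58 ± 0.05 in naive cells, while without stimulus the same difference was 0.16 ± 0.23 and 0.08 ± 0.23 in the other set (adjusted p = 1 and 0.869). Mdm2 was lower in both (-0.38 ± 0.05 and -0.45 ± 0.05). Trp53inp1 was lower in both (-1.24 ± 0.08 in GC and -0.92 ± 0.08 in naive cells). Phlda3 gave 1.67 ± 0.38 in GC and 1.56 ± 0.38 in naive cells, or 0.70 and 0.31 with a pseudocount of 1. Cdkn1a went opposite ways in this set, with 0.30 ± 0.09 in GC cells (adjusted p = 0.00548) and -1.94 ± 0.09 in naive cells (adjusted p = 2.2e-17). A rise in GC cells was not seen in the antigen receptor set without anti-CD40. There, GC values were 0.47 and 0.27 at 4 h against 0.80 and 1.34 at 2 h without stimulus. Under anti-IgM they were 1.33 and 1.05 against 2.30 and 2.04. Under anti-CD40 (1.17 and 1.69 against 0.985 and 1.65) and both stimuli (1.45 and 2.35 against 2.15 and 1.785), the times overlapped.

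Without stimulus, time could be read in the antigen receptor set only. Naive cells at 4 h, against 2 h, had less Cdkn1a (-2.00 ± 0.37, adjusted p = 0.00139) and Aen (-1.12 ± 0.20, adjusted p = 0.000992) and more Ccng1 (0.75 ± 0.17, adjusted p = 0.00495). These were 3 of 10 genes, against 15.1% of all genes, and 5 of 10 with the replicate block, against 41.2%. All 3 calls were lost when only the groups compared were fitted (adjusted p 0.104, 0.109 and 0.132). In unstimulated GC cells 0 of 10 were called by limma, against 0.213% of all genes, with 1 at an unadjusted p under 0.05, against 6.48%, and 0 with the block, against 4.32%.

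The time effect differed between GC and naive cells for 8 of 10 genes in the IL-21 set, against 41.4% of all genes, and for 3 of 10 in the antigen receptor set, against 13.8%, or 8 with the block, against 37.2%. For Cdkn1a the difference was 2.24 ± 0.13 (adjusted p = 4.21e-14) and 1.92 ± 0.26 (adjusted p = 0.00011) in the 2 sets, for Ccng1 it was -0.25 ± 0.07 and -0.59 ± 0.12, and for Aen 0.36 ± 0.11 and 0.62 ± 0.14. In the IL-21 set Trp53inp1 also differed (-0.32 ± 0.11), a call that was lost without GC anti-CD40 replicate 1 at 2 h (adjusted p = 0.0545).

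GC and naive cells without stimulus differed for 5 of the 10 genes, against 53.7% of all genes, and for 9 with the replicate block, against 74.6%. The block is fitted within each cell type. Its p-values therefore leave out how far the GC against naive difference varies between the replicate numbers. Cdkn1a was at 0.47 and 0.27 at 4 h and 0.80 and 1.34 at 2 h in GC cells, against 1.20 and 0.88 at 4 h and 3.19 and 2.90 at 2 h in naive cells, a difference of -1.33 ± 0.26 (0.399-fold, adjusted p = 0.000304). Aen was lower in GC cells (difference -0.99 ± 0.14, adjusted p = 7.47e-06). Trp53 was lower in GC cells at 7.50 and 7.55 at 4 h and 7.27 and 7.47 at 2 h, against 8.29 and 7.91 at 4 h and 8.09 and 7.94 at 2 h in naive cells (difference -0.61 ± 0.16, adjusted p = 0.00408). Mdm2 was higher in GC cells, by 0.51 ± 0.13 (adjusted p = 0.0032), with overlap at 4 h only. Zmat3 was higher by 1.76 ± 0.72 (adjusted p = 0.0469), a call lost without replicate 1 of GC or of naive cells at either time (adjusted p 0.148 to 0.216), with no filter on low values (0.11) and when only the groups compared were fitted (0.0613).

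The shift by replicate number enters these GC against naive values. Trp53, over the 8 stimulus and time pairs, ranged from -1.04 to 0.35 by number 1 (or 4), with a median of -0.57, and from -0.47 to 1.11 by number 2 (or 5), with a median of 0.10. Its 4 unstimulated differences were all below 0, at -0.82 to -0.36. Mdm2 ranged from -0.23 to 0.51 by number 1 and was higher in GC cells in all 8 pairs by number 2, at 0.18 to 1.01. Cdkn1a was lower in GC cells by number 1 (or 4) in all 8, at -3.25 to -0.68, and ranged from -2.68 to 0.30 by number 2 (or 5). Aen was lower in GC cells under both numbers in all pairs, at -1.91 to -0.64 and at -1.46 to -0.33. Mdm4 was higher in GC cells by number 1, at 0.51 to 2.23, and ranged from -0.69 to 0.34 by number 2. Trp53inp1 was higher by number 1, at 1.17 to 3.59, and ranged from -0.33 to 1.57 by number 2, and Zmat3 was at 2.28 to 5.05 against -0.58 to 1.65. Bax was lower in GC cells by number 1, at -1.01 to -0.37, and ranged from -0.37 to 0.41 by number 2. The median GC against naive difference had opposite signs by the 2 numbers for Trp53 and Mdm4, while the medians of Trp53inp1 (2.24 and 0.59) and Zmat3 were above 0 and those of Bax (-0.79 and -0.02) below 0 by both. Of the 10 genes only Aen kept one sign in all 16 differences.

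**Figure D5:**
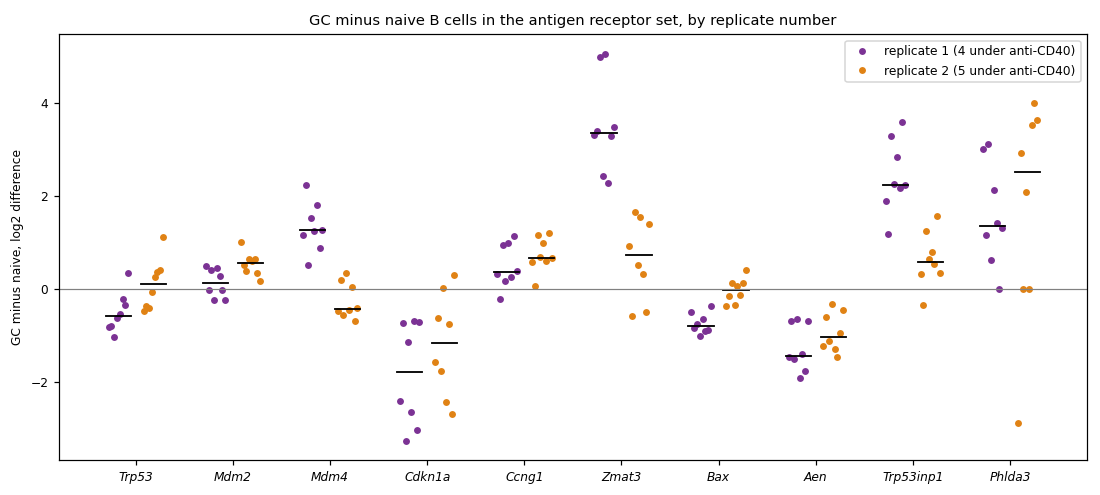
GC minus naive log2 value for each of the 8 stimulus and time pairs of the antigen receptor set, by replicate number 1 (4 under anti-CD40) and 2 (5). The genes are along the horizontal axis, and the black line is at the median. For Mdm4 and Zmat3 the points of the 2 numbers lie apart, with medians of 1.26 and -0.42 for Mdm4 and 3.35 and 0.72 for Zmat3. Those of Trp53inp1 overlap, at 1.17 to 3.59 against -0.33 to 1.57, and those of Bax meet at -0.37.

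The IL-21 set, under anti-CD40, gave a second view of GC against naive cells, with 9 of 10 genes called, against 73.4% of all genes. Cdkn1a was lower in GC cells (difference -2.19 ± 0.12, adjusted p = 1.15e-16), and Aen and Mdm4 were lower (-0.45 ± 0.10 and -0.47 ± 0.10). Zmat3 (0.75 ± 0.20), Ccng1 (0.58 ± 0.07), Bax (0.42 ± 0.06), Trp53inp1 (0.39 ± 0.10) and Mdm2 (0.29 ± 0.06) were higher. Trp53 gave -0.03 ± 0.07 (adjusted p = 0.69). The ninth gene is Phlda3, with 1.77 ± 0.47, or 0.65 with a pseudocount of 1, which passed the filter through GC libraries under anti-CD40. Mdm4 and Bax had the opposite sign to the one they had without stimulus in the other set, where neither was called without the block. Beside these differences, 13 of 13 G2/M genes were higher in GC cells in both sets, with a median of 4.30 without stimulus and 4.19 under anti-CD40 in the IL-21 set, and 9 of 10 immediate early genes were lower without stimulus, with a median of -1.87. Their part in the differences of the p53 pathway genes was not tested.

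Other genes of the pathway, taken from lists of apoptotic targets (9 of 10 tested), arrest, repair and metabolic targets (20 of 21) and p53 regulators (18 of 18), did not share one direction. Their counts can be set beside the share of all genes called in either direction, given with each comparison above. Under anti-CD40, against 13.9% of all genes in GC and 28.7% in naive cells, the apoptotic list had 3 genes higher and 0 lower in GC cells, with a median of 0.38 against -0.02 for all genes. They were the death receptor Fas (2.06 ± 0.31), Bid, which links death receptors to mitochondria (1.22 ± 0.21), and Pmaip1, the BH3-only protein Noxa (0.49 ± 0.16). In naive cells 2 were higher and 0 lower, Fas (3.84 ± 0.31) and Bid (1.10 ± 0.21). The arrest, repair and metabolic list had 1 higher and 5 lower under anti-CD40 in GC cells (median -0.41) and 2 higher and 7 lower in naive cells (median -0.33). Among those that fell in both were the kinase Plk2 (-1.69 ± 0.17 in GC and -1.82 ± 0.17 in naive cells), the antiproliferative Btg2 (-0.52 ± 0.12 and -1.76 ± 0.12) and Gadd45a (-1.01 ± 0.17 and -2.16 ± 0.17), a stress gene of arrest and DNA repair. Of the regulators, 0 rose and 1 fell in GC cells, the ubiquitin ligase Rchy1 (-0.31 ± 0.10), and in naive cells 1 rose and 1 fell, the checkpoint kinase Chek1 (0.90 ± 0.18) and Rchy1 (-1.22 ± 0.10).

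Under anti-IgM, 4 of the 20 tested genes of the arrest, repair and metabolic list were higher and 2 lower in GC cells, against 9.05% of all genes, with Plk2 at 1.87 ± 0.17, Ephx1, a microsomal epoxide hydrolase, at 2.18 ± 0.25, the stress protein Sesn1 at 0.90 ± 0.14 and Plk3 at 1.32 ± 0.27. In naive cells 4 were higher and 4 lower, against 30.4%, with Plk2 at 1.53 ± 0.17, Sesn1 at -2.29 ± 0.14, Btg2 at -2.07 ± 0.12 and Gadd45a at -1.80 ± 0.17. The difference of the anti-IgM effect between GC and naive cells was 3.19 ± 0.20 for Sesn1 (adjusted p = 1.22e-08) and 1.63 ± 0.16 for Btg2 (adjusted p = 3.52e-06). Of the apoptotic list, Pmaip1 rose in GC cells (0.78 ± 0.16) and Fas in naive cells (0.84 ± 0.31), with no other called without the block. The Pmaip1 effect was larger in GC cells by 1.21 ± 0.23 (adjusted p = 0.0021).

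When IL-21 was added to anti-CD40, Pmaip1 (0.94 ± 0.07 in GC and 1.05 ± 0.07 in naive cells) and Fas (0.73 ± 0.09 and 1.10 ± 0.08) rose while Bbc3, the BH3-only protein Puma, fell (-0.78 ± 0.09 and -0.40 ± 0.08). The apoptotic list had 2 higher and 1 lower in GC cells, against 33.2% of all genes, and 3 higher and 1 lower in naive cells, against 24.3%. The arrest, repair and metabolic list had 1 higher and 8 lower in GC cells, with Sesn1 at -1.50 ± 0.12 and Btg2 at -0.98 ± 0.10, and 1 higher and 2 lower in naive cells, with Sesn1 at -1.20 ± 0.11. In GC cells, IL-21 plus anti-CD40 against IL-21 lowered 14 of the 20 tested and raised 3, with a median of -0.71 against -0.05 for all genes, of which 56.6% were called. All 13 G2/M genes fell in that comparison too, with a median of -0.72, and their part was not tested.

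Without stimulus, GC cells had 5 of 18 regulators higher and 0 lower than naive cells, while 53.7% of all genes were called. Among the 5 were Chek1 (4.12 ± 0.18), Cdkn2a, the locus of p16 and of the Mdm2 inhibitor Arf (5.67 ± 0.88), the deubiquitinase Usp7 (1.22 ± 0.22) and Chek2 (1.40 ± 0.43). Of the apoptotic list, 3 were higher and 2 lower, with Fas at 3.14 ± 0.31, Lrdd (the older symbol of Pidd1) at 2.24 ± 0.40, Apaf1 at 1.89 ± 0.31 and Pmaip1 at -1.66 ± 0.16. Of the arrest, repair and metabolic list, 4 were higher and 10 lower, with Polh, a translesion polymerase, at 4.50 ± 0.35, Gtse1, a gene expressed in G2 and S phase, at 3.66 ± 0.25, Plk3 at -3.02 ± 0.27 and Sesn1 at -2.06 ± 0.14. By replicate number, the 4 unstimulated differences had one sign for 11 of these 12 genes. The 12 genes were picked by their small adjusted p in these same libraries, so that count is no separate support. Chek2 was the exception, at -0.52 to 0.96 by number 1 and 2.11 to 3.04 by number 2. Cdkn2a was at 6.80 to 7.34 by number 1 and 3.58 to 4.96 by number 2.

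The genes most like each member over the 28 group means, each set centred on its own mean, were ranked by Pearson r as a description. Aen was most like Ccdc86 (0.981), Grwd1 (0.974) and Nob1 (0.973), and Bax most like Pcyt2 (0.963). Ccng1 followed Zfp760 (0.955), Cdkn1a followed Ubxn4 (0.945), Wasl (0.914) and Per2 (0.908), and Zmat3 followed Fkbpl (0.936). Trp53inp1 was most like Nr3c1, the glucocorticoid receptor (0.933), Elf1 (0.928) and Klhl24 (0.907), and Trp53 most like Acad9 (0.927). Values for Mdm2 with Syne2 (0.896), Phlda3 with Commd10 (0.855) and Mdm4 with Zfp407 (0.812) were lower. No member had another of the 10 among its 3 nearest genes. The points share libraries and normalization within a set.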

How the data were processed

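The authors deposited one log2 expression value per gene and library, from spleen B cell RNA (RNeasy columns, SMART-Seq v4 libraries, which do not mark strand, per the labels' protocols). Per the submitters' processing notes, the build was mm10 and the tools included STAR 2.6.1a, Trim Galore 0.6.5, FastQC 0.11.7, featureCounts of Subread 2.0.1 and limma. Back-transformed values sum to 973112 to 1014501 per library in the IL-21 set and 926830 to 1065945 in the antigen receptor set, as log2 CPM would nearly give. The read depth is unknown, so no counting interval is given. The sets were normalized separately, with library medians of 4.628 to 4.646 and 4.793 to 4.84, and stimuli were compared only within a set.

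Values were tested as deposited with limma 3.58.1 (R 4.3.3, trend and robust moderation), one fit per set over all its groups, with 22 residual degrees of freedom in the IL-21 set and 16 in the antigen receptor set, on genes above log2 1 in at least 4 of 66 libraries. The code was tested on simulated data. P-values were adjusted by Benjamini-Hochberg over the 11264 genes of each comparison. Replicate numbers pair the libraries of the antigen receptor set within a cell type, as their deviations from the group means correlate in all 32 pairs of each, and do not in the IL-21 set. The members and lists were chosen with earlier results of these data known. All 10 members are named, and up to 4 genes of each other list with the smallest adjusted p per comparison. Of 28 comparisons, 24 were planned and 4 were added after seeing the data: the differences between 4 h and 2 h in the effect of anti-CD40 added to IL-21 (both cell types), and the differences between GC and naive cells in the time effect (both sets). Alternatives were a filter of log2 3, no filter, a pseudocount of 1, plain moderation, a fit of only the groups compared, a joint fit of both sets, a replicate block and leaving out each library. Gene positions are from GENCODE vM21 (GRCm38). Promoter sequences are from RefSeq.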

Additional observations from a re-analysis of the deposited data

Results flagged for a closer look

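Each result below is a difference between GC and naive cells in the effect of one stimulus or of time, tested with limma as the difference of the effects themselves. With anti-IgM plus anti-CD40, against no stimulus, the effect in GC cells minus that in naive cells was 0.99 for Trp53 and 0.66 for Ccng1. Trp53 changed by 0.78 in GC and -0.21 in naive cells, and Ccng1 by -0.27 in GC and -0.93 in naive cells. For IL-21 added to anti-CD40, the difference of effects was 0.56 for Trp53inp1, with effects of 0.61 in GC and 0.05 in naive cells, and -0.67 for Cdkn1a, with 0.18 in GC and 0.85 in naive cells. Both calls were lost in the joint fit of both sets (adjusted p 0.867 and 0.187, limma).

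The effect of time, 4 h against 2 h averaged over the stimuli, differed between GC and naive cells for 8 genes in the IL-21 set. The difference was 0.34 for Trp53, 0.57 for Mdm4, -0.25 for Ccng1, 0.36 for Aen, -0.32 for Trp53inp1, -0.85 for Zmat3, 2.24 for Cdkn1a and -0.58 for Bax. The Trp53inp1 call was lost without GC anti-CD40 replicate 1 at 2 h (adjusted p = 0.0545, limma), with no filter (0.0603) and in the joint fit (0.268), where those of Mdm4 (0.0757) and Zmat3 (0.117) were lost too. In the antigen receptor set it differed for 3 genes, at -0.59 for Ccng1, 0.62 for Aen and 1.92 for Cdkn1a. For these 3 genes the sign was the same in both sets, which share no library. The comparisons were added after seeing the data, and whether the sets share mice is not known. The shared sign is therefore no separate support.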

How the results depend on the processing

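Over the 113 effects of the 10 genes that were called, no alternative and no left-out library reversed a sign. Of the values under alternatives, 737 kept their call and 50 lost it, 28 of these in the joint fit of both sets, 13 in the fit of only the groups compared, 6 with no filter, and 1 each with plain moderation, the pseudocount and the replicate block. Leaving out 1 library kept 1490 calls and lost 57. Depth is not known, so what it limits cannot be given. The cause of the changes below was not tested, except that a fit of only the groups compared holds fewer libraries.

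With the replicate block, in the antigen receptor set, where the numbers pair the libraries, all genes called went to 3911, 2573 and 5360 in GC cells (anti-CD40, anti-IgM and both, against no stimulus) and to 2903 for both against anti-CD40, from 1571, 1019, 2957 and 1049. In naive cells they went to 5881 (anti-CD40), 6018 (anti-IgM) and 3777 (both against anti-CD40). For time without stimulus they went to 487 in GC and 4643 in naive cells, and for the differences of effects between GC and naive cells to 2079 (anti-CD40), 3292 (anti-IgM), 3627 (both) and 4194 (time). The p53 pathway genes called with the block were 5, 4, 8 and 2 in the GC comparisons, 7 for anti-IgM and 4 for both against anti-CD40 in naive cells, 5 for time in naive cells, 9 for GC against naive cells, and 2, 4, 5 and 8 for the differences of effects. In the IL-21 set, where the numbers do not pair the libraries, the block ended the call of Ccng1 for IL-21 against anti-CD40 in GC cells (adjusted p = 0.0616). It added Aen to IL-21 plus anti-CD40 against anti-CD40 in naive cells (0.0019) and to the difference of that effect between GC and naive cells (0.0125).

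In the joint fit, all genes called were 2453 (anti-CD40), 1540 (anti-IgM) and 1702 (both against anti-CD40) in GC cells, 147 and 2923 for time without stimulus in GC and naive cells, and 1018, 1877, 2242 and 2696 for the differences of effects (anti-CD40, anti-IgM, both and time in the antigen receptor set). In the IL-21 set they were 2006 in GC and 1208 in naive cells for IL-21 plus anti-CD40 against anti-CD40, 2953 and 2934 for IL-21 against anti-CD40, 180 and 3077 for the differences of effects (added IL-21 and time), and 1446 and 1075 for the time dependence of added anti-CD40. The p53 pathway genes called were 5, 7 and 1 in GC cells (anti-CD40, both, and both against anti-CD40), 4 in naive cells (both against anti-CD40), 8 for GC against naive cells, and 1, 3 and 5 for the differences of effects (anti-CD40, anti-IgM and time). In the IL-21 set they were 1 in GC and 1 in naive cells for IL-21 plus anti-CD40 against anti-CD40, 3 for IL-21 against anti-CD40 in GC cells, 0 and 5 for the differences of effects, and 3 and 1 for the time dependence of added anti-CD40.

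With only the groups compared in the fit, all genes called were 883, 527 and 523 in GC cells (anti-CD40, anti-IgM, both against anti-CD40), 2117 and 816 in naive cells (anti-IgM, both against anti-CD40), 0 and 0 for time without stimulus in GC and naive cells, and 272 and 626 for the differences of effects (anti-CD40 and anti-IgM). The p53 pathway genes called were 0 for anti-IgM in GC cells and 0 for time in naive cells. With no filter, time without stimulus called 41 genes in GC cells. With the pseudocount, anti-IgM called 1 p53 pathway gene in GC cells. With the stricter filter, both against anti-CD40 called 2 in naive cells, and the difference of the anti-IgM effect called 1.

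When each library was left out in turn, GC cells under anti-IgM gave 656 to 925 genes and 0 to 2 p53 pathway genes, and both against anti-CD40 gave 693 to 929 genes. Time without stimulus gave 3 to 24 genes in GC and 684 to 1073 in naive cells. IL-21 plus anti-CD40 against anti-CD40 gave 2 to 4 p53 pathway genes in GC and 2 to 4 in naive cells. The differences of the anti-CD40 and the anti-IgM effect between GC and naive cells each gave 0 to 1, and the time dependence of added anti-CD40 in naive cells gave 2 to 5.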
